A study of Mus musculus with 4 samples.

Results

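The genes described here are the Wnt ligands, their Frizzled and LRP receptors, and the proteins that carry the signal inside the cell or set planar polarity. They were taken by name: every gene of the array called Wnt or Fzd with a number, together with 17 further genes of the pathway. The rule names 46 genes, and 45 of the 18193 genes measured were members. The remaining one, Tcf7, had no probe set that names it alone and was not analysed here.

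The RNA came from haematopoietic stem cells (HSCs) of transgenic mice that carry N-myc fused to mCherry, a red fluorescent protein. Per the labels' protocols the cells were negative for lineage markers and CD48 and positive for Sca-1, Kit and CD150, and they were neither cultured nor treated. By mCherry signal they were divided into cells with high and with low N-myc, and each fraction was profiled from mouse 1 and from mouse 2, which gives 4 arrays and 2 per group. All 4 arrays therefore share the fusion gene, and the groups are fractions of one sorted population rather than different genotypes. The promoter of the fusion gene, the age of the mice, their strain and any pooling were not given in the sources used here.

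Wnt proteins are secreted lipid-modified ligands. In the canonical branch a Wnt binds a Frizzled receptor and an LRP co-receptor, Dishevelled is recruited, the Axin complex stops degrading beta-catenin, and beta-catenin enters the nucleus to work with factors of the TCF and LEF family. In the planar polarity branch Frizzled and Dishevelled act without beta-catenin, opposed across a cell junction by Vangl and Prickle proteins, with Celsr cadherins bridging the cells. In blood, Wnt signals come from the marrow niche and from blood cells themselves, and their dose is known to matter for HSC self-renewal.

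The arrays matched their labels in the sorted gene with the probe set that stands for it. Mycn was at a log2 intensity of 10.48 and 10.39 in N-myc high (mouse 1 and 2) against 9.44 and 9.65 in N-myc low. This is a difference of 0.89 with a standard error (SE) of 0.189. Its other probe sets gave 0.11 and 1.06, but in both the fractions overlapped and the mice had opposite signs (0.32 and -0.10, and -0.20 and 2.32). Kit was at 10.17 to 10.53 and Slamf1, which encodes CD150, at 8.01 to 8.99 over the 4 arrays. Cd48, which the sort selects against, was at 7.42 and 7.11 in N-myc high against 9.89 and 9.07 in N-myc low. Both arrays of mouse 1 held Xist (11.38 and 11.10) beside the Y-linked Eif2s3y (8.53 and 8.43), while those of mouse 2 held Xist at 3.84 and 3.70 and Eif2s3y at 9.40 and 9.67. Whether the mouse 1 samples hold RNA of more than 1 animal was not tested. Differences are also given within each mouse, as numbered in the labels, which does not answer that question.

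The members with the smallest p-values were planar polarity genes and 1 ligand. With the probe sets that stand for them, Prickle1, Vangl1 and Vangl2 were higher in N-myc high HSCs in both mice. Their log2 differences were 1.61, 1.15 and 0.64, and Wnt2b was lower in both mice, with -2.28. Other probe sets gave -0.30 and 0.16 for Prickle1, 0.40 for Vangl1 and 0.72 and -0.40 for Vangl2, while Wnt2b has 1 probe set. Beta-catenin, both LRP co-receptors, Axin1 and Lef1 differed by less than 0.2 with the probe sets that stand for them, while second probe sets gave 0.57 for Axin1 and -1.46 for Lrp6. None of the 45 members passed an adjusted p under 0.05 (limma, Benjamini-Hochberg over all genes), nor did any other gene (0 of 18193, 0%), and the lowest adjusted p of a member was 0.733. At an unadjusted p under 0.05 in limma, 642 of all genes were higher and 506 lower. The values given here are therefore differences that missed the adjusted threshold.

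An unadjusted p under 0.05 in limma served as a descriptive mark. It was reached by 3 members on the higher side (6.67% of the 45, against 3.53% of all genes) and by 1 on the lower side (2.22%, against 2.78% of all genes). Over the whole set the share of members marked was thus near that of all genes, and the median difference was 0.0037, against -0.033 over all genes. The fractions were apart, with no overlap of their arrays, on the higher side for 5 members (11.1%, against 15.6% of all genes) and on the lower side for 9 (20%, against 20.8%). By role, the 3 members on the higher side were all among the 7 core planar polarity genes, and the 1 on the lower side was among the 19 ligands. This split is a description only, since members and lists were chosen with earlier results of these data known. In these bulk samples fewer cells that express a gene and less RNA per cell cannot be told apart.

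**Figure D1:**
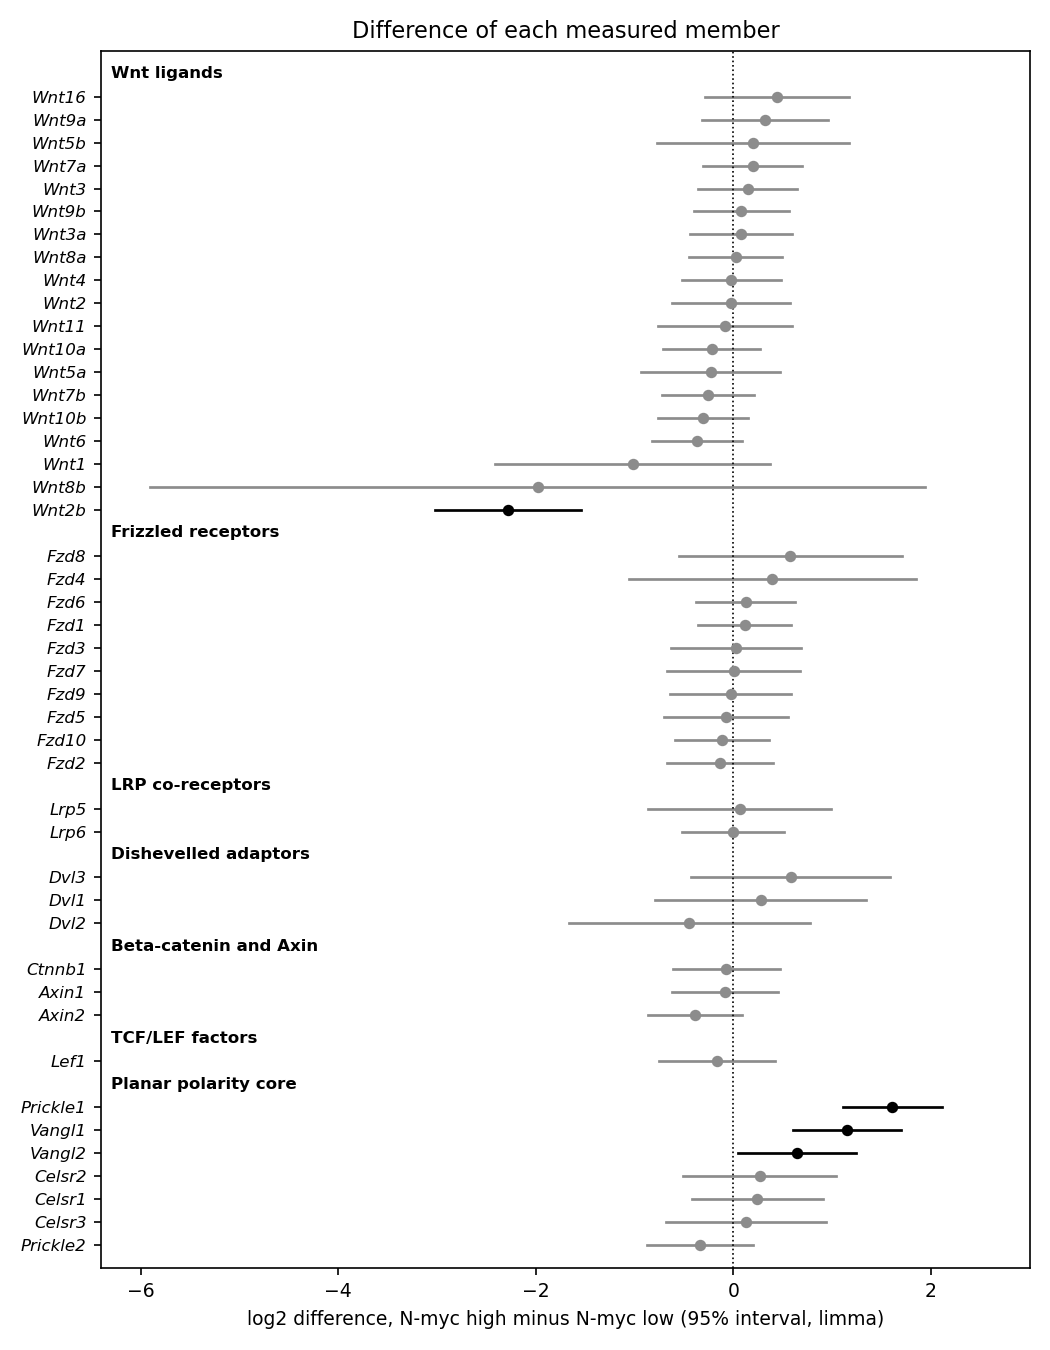
Each point is the log2 difference (x axis, N-myc high minus N-myc low) of 1 of the 45 measured members, and its bar is the 95% interval of the limma fit on 4 arrays; members are grouped by role, and black marks an unadjusted p under 0.05. The black intervals are those of Prickle1, Vangl1 and Vangl2 on the right and of Wnt2b on the left, and the bar of Wnt8b runs from -5.90 to 1.94.

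Prickle1 encodes a cytoplasmic LIM-domain protein of the planar polarity complex that binds Vangl proteins. Its log2 intensity was 7.23 and 7.17 in N-myc high (mouse 1 and 2) against 5.71 and 5.48 in N-myc low. The fractions did not overlap, and the means of 7.20 ± 0.043 (SD, n = 2) and 5.60 ± 0.16 (SD, n = 2) lay much farther apart than the arrays of either fraction. This is a 3.05-fold difference, of 1.61 on the log2 scale (SE 0.189, 95% interval 1.11 to 2.11, limma adjusted p = 0.733), with 1.52 for mouse 1 and 1.69 for mouse 2. The other probe sets of Prickle1 did not share it. One of them gave 5.36 and 5.41 in N-myc high against 5.99 and 5.39 in N-myc low, a difference of -0.30, and the other 3.16 and 3.59 against 3.35 and 3.09, a difference of 0.16. With the mean of its 3 probe sets the difference was 0.49 (unadjusted p = 0.0614 in limma).

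Vangl1 and Vangl2 encode the Van Gogh-like membrane proteins to which Prickle binds. Vangl1 was at 6.16 and 5.92 in N-myc high against 4.77 and 5.02 in N-myc low, again with no overlap. Its difference was 1.15 (SE 0.206, 95% interval 0.60 to 1.70, limma adjusted p = 0.744), with 1.39 in mouse 1 and 0.91 in mouse 2. Both N-myc low values lay below the median of all probe sets (5.28), so no fold is given. A second probe set of Vangl1 gave 4.56 and 5.19 against 4.83 and 4.11, a mean difference of 0.40 with opposite signs in the mice.

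Vangl2 was at 6.99 and 6.89 in N-myc high against 6.08 and 6.51 in N-myc low. The fractions did not overlap, but the gap between their nearest arrays was smaller than that between the N-myc low arrays. The difference was 0.64 (SE 0.225, 95% interval 0.045 to 1.24, limma adjusted p = 0.779), with 0.90 in mouse 1 and 0.38 in mouse 2. A second probe set of Vangl2 showed a like difference of 0.72 (6.66 and 7.07 against 6.51 and 5.77), and another went the other way with -0.40 (5.28 and 4.46 against 5.01 and 5.54). The mark of Vangl2 was the least firm of the 4: its unadjusted p in limma of 0.0401 became 0.0645 with the mouse as a replicate block and 0.116 with the mean of its probe sets, and lay between 0.025 and 0.149 when 1 array was left out.

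The remaining core genes did not share this pattern. Prickle2, the paralogue of Prickle1, had the opposite sign, with 4.23 and 4.15 in N-myc high against 4.68 and 4.37 in N-myc low, a difference of -0.33 (SE 0.202) without overlap. The seven-pass cadherin genes Celsr1, Celsr2 and Celsr3, whose products hold the complexes of neighbouring cells together, differed by 0.24, 0.26 and 0.13, each with opposite signs in the 2 mice. Celsr2 also changed sign with the probe set: a second one was at 4.56 and 4.69 in N-myc high against 5.03 and 5.36 in N-myc low, a difference of -0.57.

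**Figure D2:**
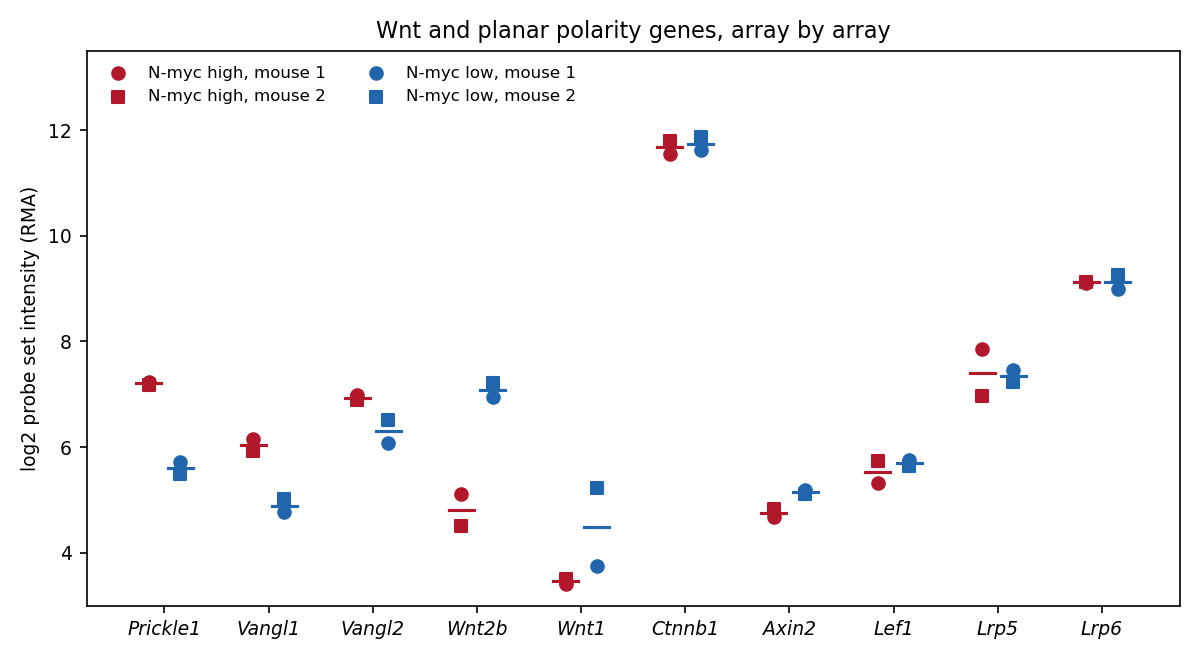
The log2 intensity (y axis, RMA) of 10 members is shown on each array, red for N-myc high and blue for N-myc low, with circles for mouse 1, squares for mouse 2 and a short line at each group's mean of 2 arrays. Red and blue are apart for Prickle1, Vangl1, Vangl2, Wnt2b, Wnt1 and Axin2 and overlap for Ctnnb1, Lef1, Lrp5 and Lrp6.

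Upstream sequences of Prickle1, Vangl2 and Wnt2b are given because a sort on a MYC protein invites a look at E-boxes, the CANNTG motif of which CACGTG is the form that MYC and MAX bind best. Each line holds the 250 bases before an annotated start, 5′ to 3′, from RefSeq on GRCm38.p6, in lower case with every CANNTG match on either strand in capitals. Vangl1 had no entry among the promoter sequences used here, so none is printed for it. Prickle1 has 2 annotated starts, and the data do not tell which was used. All lie on the minus strand: the first Prickle1 window at chr15:93595903-93596152, the second at chr15:93519521-93519770, that of Vangl2 at chr1:172027296-172027545 and that of Wnt2b at chr3:104961710-104961959.
Prickle1, first start: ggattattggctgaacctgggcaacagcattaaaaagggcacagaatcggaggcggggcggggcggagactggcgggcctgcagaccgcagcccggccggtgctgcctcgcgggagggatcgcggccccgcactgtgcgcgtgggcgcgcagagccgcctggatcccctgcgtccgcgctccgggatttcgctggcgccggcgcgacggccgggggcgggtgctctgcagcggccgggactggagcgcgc
Prickle1, second start: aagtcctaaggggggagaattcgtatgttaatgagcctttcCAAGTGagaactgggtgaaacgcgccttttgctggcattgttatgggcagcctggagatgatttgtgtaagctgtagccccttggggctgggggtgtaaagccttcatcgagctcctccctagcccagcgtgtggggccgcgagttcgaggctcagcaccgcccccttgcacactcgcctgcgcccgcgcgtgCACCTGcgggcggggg
Vangl2: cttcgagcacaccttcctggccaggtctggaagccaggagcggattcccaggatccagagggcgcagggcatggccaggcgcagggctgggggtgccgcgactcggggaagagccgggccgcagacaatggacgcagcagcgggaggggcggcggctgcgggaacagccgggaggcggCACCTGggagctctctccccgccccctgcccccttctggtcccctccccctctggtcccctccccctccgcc
Wnt2b: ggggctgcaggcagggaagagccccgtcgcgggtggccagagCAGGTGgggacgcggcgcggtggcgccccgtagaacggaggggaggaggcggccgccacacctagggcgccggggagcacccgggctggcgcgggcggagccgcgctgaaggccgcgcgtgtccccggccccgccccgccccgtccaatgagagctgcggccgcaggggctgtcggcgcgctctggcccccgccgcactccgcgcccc

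None of these 4 windows held CACGTG or a TCF/LEF motif, searched on both strands as CTTTGAA or CTTTGAT or CTTTGTA or CTTTGTT. The CANNTG motif was found 0 times before the first start of Prickle1, 2 times before its second (CAAGTG and CACCTG), 1 time for Vangl2 (CACCTG) and 1 time for Wnt2b (CAGGTG). Of the 45 members, 32 had an entry, with 43 starts in all. CACGTG stood in 9.3% of these windows against 7.38% of the 18109 windows of all genes measured. The matching shares were 69.8% against 61.3% for CANNTG, which includes CACGTG, and 11.6% against 11.9% for the TCF/LEF motif. The windows with CACGTG belonged to Dvl2, which held it 3 times, Fzd9, Wnt9a and Lef1. The median GC content of the member windows was 70.0%, against 57.6%, with a range from 44.8% for a start of Lef1 to 87.6% for Wnt3a, and the median number of CpG steps was 21, against 12; neither difference was tested. A match is a sequence description and says nothing of binding in these cells.

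Among the ligands, Wnt2b stood apart. It encodes a Wnt that signals mainly through beta-catenin. Its log2 intensity was 5.11 and 4.51 in N-myc high (mouse 1 and 2) against 6.96 and 7.22 in N-myc low. Both N-myc low arrays were far above both N-myc high arrays, with means of 7.09 ± 0.19 (SD, n = 2) and 4.81 ± 0.43 (SD, n = 2). The log2 difference was -2.28 (SE 0.279, 95% interval -3.02 to -1.54, limma adjusted p = 0.744), with -1.85 in mouse 1 and -2.72 in mouse 2. Wnt2b rests on a single probe set, so no second reading of it is given, and its N-myc high values lay below the median of all probe sets, so here too no fold is given.

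Wnt1, a canonical ligand best known from brain patterning, was at 3.42 and 3.51 in N-myc high against 3.74 and 5.22 in N-myc low. The difference of -1.02 (SE 0.522, 95% interval -2.41 to 0.37) came mostly from the N-myc low array of mouse 2, and it was -0.28 without that array. Wnt8b gave a mean difference of -1.98 (SE 1.48) that came from 1 array: it was at 3.80 and 4.11 in N-myc high against 8.13 and 3.74 in N-myc low. Its other probe sets did not show that array high, with 3.95 and 4.05 against 4.15 and 4.42, and 2.72 and 2.70 against 2.73 and 2.76. The difference was -4.18 without the N-myc low array of mouse 2, which leaves the high value as the only N-myc low reading, and 0.22 without the N-myc low array of mouse 1.

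The other 16 ligands differed by -0.37 to 0.44 and had no unadjusted p under 0.05 in limma. Wnt6 was lower in N-myc high on all arrays of both of its probe sets (5.96 and 5.95 against 6.34 and 6.31; 4.32 and 4.63 against 4.74 and 5.38), a difference of -0.37 with the first (95% interval -0.83 to 0.087). The paralogues Wnt10a and Wnt10b (-0.22 and -0.31) and Wnt7b (-0.26) likewise had both N-myc high arrays below both N-myc low arrays, while Wnt7a (0.20) had them above. Another probe set of Wnt7a was apart the other way, with 3.72 and 3.80 against 3.92 and 4.50, a difference of -0.45. Wnt16, which is expressed in lymphoid and bone tissue, had a difference of 0.44, with 0.48 and 0.40 in the mice but with overlap. Wnt9a had one of 0.32 with opposite signs in the mice (0.68 and -0.041), and -0.15 with its second probe set. Wnt5a, the classic non-canonical ligand, differed by -0.23 in either mouse, but its fractions overlapped. Its other probe sets gave -0.10, 0.11 and 0.074. The paralogue Wnt5b differed by 0.20 with opposite signs in the mice. A second probe set of Wnt5b was lower in N-myc high without overlap, at 3.73 and 3.69 against 3.89 and 4.06, a difference of -0.27. Wnt3, Wnt3a and Wnt4 gave 0.14, 0.076 and -0.02, and Wnt2, Wnt8a, Wnt9b and Wnt11 gave -0.023, 0.025, 0.082 and -0.085. Of the 19 ligands, 4 lay above the median of all probe sets in their mean over the arrays, so most ligand values were dim, and a dim value cannot be told from an absent transcript without detection calls. Both Wnt3 and Wnt5b are read by probe sets of the x type, which the maker marks as able to bind related sequences.

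The Frizzled genes, which encode the seven-pass Wnt receptors, showed no member with an unadjusted p under 0.05 in limma. Their 10 differences ran from -0.14 to 0.58, with a median of 0.02. Fzd6 and Fzd7, chosen here as receptors well above the median of all probe sets, were at 7.31 and 7.36 against 7.32 and 7.10, and at 7.19 and 7.67 against 7.57 and 7.28. For both the fractions overlapped, and the 95% intervals of the differences were -0.37 to 0.63 and -0.67 to 0.68. Other probe sets gave -0.29 and 0.022 for Fzd6 and -0.20 for Fzd7. Fzd8 had the highest difference (0.58, SE 0.425), with 6.25 and 5.59 against 5.83 and 4.86, which overlap although both mice gave the same sign, and its second probe set gave -0.31. Fzd4, the receptor for Norrin as well as for Wnts, went in opposite directions, by -0.68 in mouse 1 and 1.47 in mouse 2, and its other probe sets gave -0.31 and -1.05. The rest were Fzd1 (0.11), Fzd2 (-0.14), Fzd3 (0.029), Fzd5 (-0.075), Fzd9 (-0.028) and Fzd10 (-0.12), all with intervals that include 0.

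The LRP co-receptors pair with Frizzled in the canonical branch. Lrp5 was at 7.85 and 6.97 in N-myc high against 7.46 and 7.23 in N-myc low, so the N-myc high pair spanned the other (difference 0.065, 95% interval -0.86 to 0.99). Lrp6 was at 9.11 and 9.13 against 8.99 and 9.26, a difference of -0.0065 (95% interval -0.52 to 0.51). A second probe set of Lrp6 disagreed: it was at 6.95 and 6.76 in N-myc high against 8.61 and 8.02 in N-myc low, a difference of -1.46 with no overlap. With the mean of both probe sets Lrp6 was at -0.73 (unadjusted p = 0.00797 in limma), so its direction and its mark depend on the probe set.

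The Dishevelled genes, which encode the adaptors shared by both branches, varied between the arrays of a fraction. Dvl1 was at 11.31 and 11.41 in N-myc high against 10.54 and 11.63 in N-myc low, and Dvl3 at 8.50 and 8.77 against 7.57 and 8.55. In both genes the N-myc low array of mouse 1 was the low one. A second probe set of Dvl1 was apart the other way, with 7.29 and 7.08 against 7.38 and 7.61, a difference of -0.31. Their differences were 0.28 (SE 0.403) and 0.58 (SE 0.379), and without the N-myc low array of mouse 2 they were 0.82 and 1.07, with unadjusted p of 0.0281 and 0.0186 in limma. That comparison sets both N-myc high arrays against the low array alone, which is assumed to vary as they do. Dvl2 had 6.11 and 5.16 against 5.65 and 6.51, with opposite signs in the mice and a mean difference of -0.45, while its second probe set gave 0.53. The intervals of all 3 reach past 1 on the log2 scale in at least one direction, so these arrays bound them poorly.

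Ctnnb1, the beta-catenin gene, was at 11.55 and 11.80 in N-myc high against 11.63 and 11.86 in N-myc low, a difference of -0.071 (SE 0.205, 95% interval -0.62 to 0.47), and its other probe sets gave 0.086 and, without overlap, 0.19. With the probe set that stands for the gene, the arrays of a mouse lay closer to each other than those of a fraction did. Axin1, the scaffold of the degradation complex, differed by -0.087, at 7.43 and 7.15 against 7.45 and 7.30. Its second probe set gave 0.57, at 7.30 and 7.72 against 7.42 and 6.45, and the fractions overlapped in both. Axin2, a scaffold that is also a standard transcriptional target of beta-catenin, was at 4.69 and 4.82 in N-myc high against 5.18 and 5.11 in N-myc low. This difference of -0.39 had no overlap but an interval that includes 0 (-0.87 to 0.087; limma adjusted p = 0.793), and a second probe set gave 0.18. Lef1, the TCF/LEF factor measured here, was at 5.33 and 5.73 against 5.75 and 5.64, a difference of -0.17 (95% interval -0.76 to 0.42) with opposite signs in the mice.

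**Figure D3:**
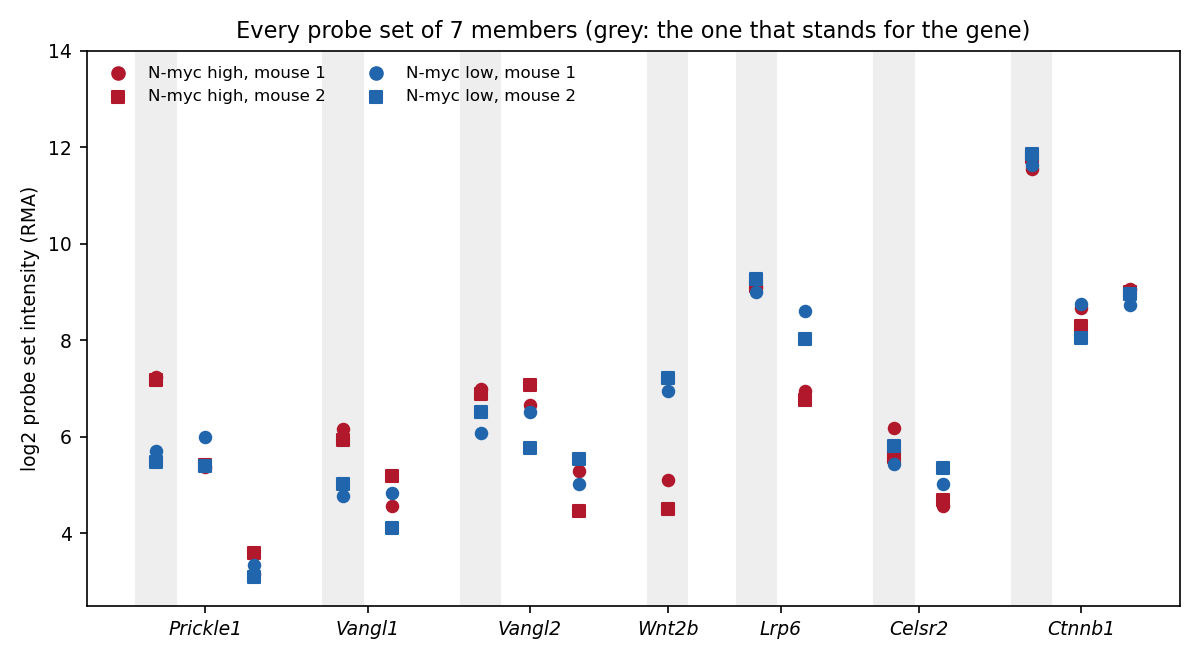
Every probe set that names 1 of 7 members alone is shown as a column of 4 log2 intensities (y axis, RMA), 1 per array, in red for N-myc high and blue for N-myc low, with circles for mouse 1 and squares for mouse 2; a grey band marks the probe set that stands for the gene. Prickle1 is apart by 1.61 in the band but not in the other columns, Vangl2 is apart in 2 of 3 columns, and Lrp6 is level in the band and apart by -1.46 beside it.

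Probe sets often disagreed across the gene set. The 45 members had 88 probe sets, and 29 had more than 1. In 9 of these 29 all probe sets had the same sign, as in Vangl1, Wnt6 and Wnt8b, and in 20 they differed. The choice of the probe set with the highest mean is a convention, and the 16 members with 1 probe set, such as Wnt2b, were read once.

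The mice often differed. In all, 9 of the 45 members were higher and 12 lower in N-myc high in both mice, and the other 24 had opposite signs. Over all 18193 genes, 4227 were higher and 5406 lower in both mice, so disagreement between the mice was not particular to the members. Among members whose mice were far apart were Wnt8b (-4.33 in mouse 1 and 0.37 in mouse 2), Fzd4, Dvl2 (0.46 and -1.35) and Wnt1 (-0.32 and -1.72).

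**Figure D4:**
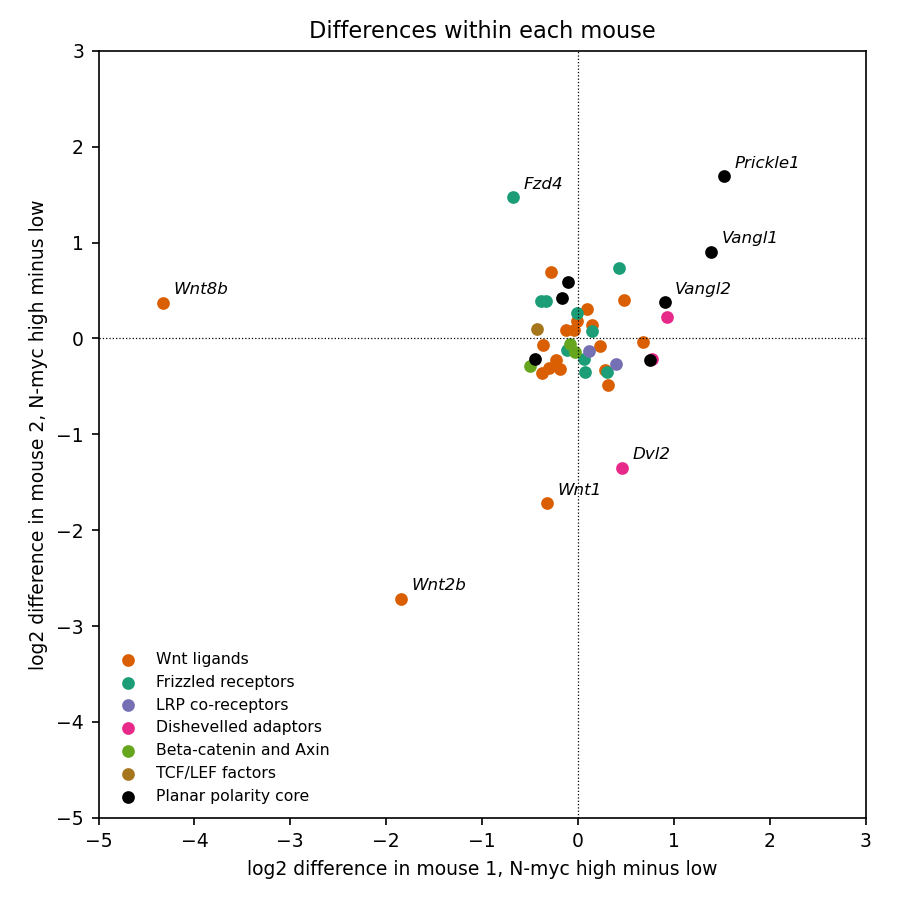
Each point is a member, placed by its log2 difference between N-myc high and N-myc low in mouse 1 (x axis) and in mouse 2 (y axis) and coloured by role. Prickle1 (1.52 and 1.69), Vangl1 and Vangl2 lie at the upper right and Wnt2b at the lower left, while Wnt8b lies far to the left at -4.33 with 0.37 in mouse 2.

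The rest of the pathway was read through 8 lists with 112 genes, of which 108 were measured. At an unadjusted p under 0.05 in limma, 7 were higher (6.48%, against 3.53% of all genes) and 6 lower (5.56%, against 2.78%), 0 passed the adjusted threshold, and their median difference was -0.044. The sum of 13 was 8 or 7 when the N-myc high array of mouse 1 or of mouse 2 was left out, and 8 or 16 when the N-myc low array of mouse 1 or of mouse 2 was. Each of the 8 lists held at least 1 of the 13 genes.

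Among receptors outside the Frizzled family, 2 of 8 were on the higher side. Ryk, an atypical receptor tyrosine kinase that binds Wnts and also takes part in planar polarity, was at 7.68 and 7.29 in N-myc high against 6.46 and 5.32 in N-myc low, a difference of 1.60 (SE 0.436). Its other probe sets gave 0.02 and 0.50. Adgra2, the adhesion receptor also called Gpr124 that assists Wnt7 signalling, was at 4.65 and 5.06 against 4.0 and 4.16, a difference of 0.78. The fractions were apart for both genes, but all values of Adgra2 lay below the median of all probe sets (5.28).

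In the degradation complex, whose 14 genes had a median difference of 0.06, the scaffold Apc and the kinase Gsk3a were higher by 0.72 (SE 0.185) and 0.75 (SE 0.205). Apc was at 8.70 and 8.86 against 8.13 and 7.99, and its other probe sets ran from -0.10 to 0.45. Among nuclear co-factors, 2 of 14 were on the higher and 2 on the lower side. Tcf7l2, a TCF factor, was at 8.11 and 8.31 in N-myc high against 7.15 and 7.52 in N-myc low (difference 0.87), although 1 of its other probe sets gave -0.39. The Groucho-type repressor gene Tle2 was at 7.69 and 7.40 against 6.42 and 6.80 (0.94). Ctnnbip1, which encodes the inhibitor ICAT that keeps beta-catenin from TCF factors, was lower, at 5.99 and 5.92 against 6.89 and 6.75 (-0.87, SE 0.18; -0.58 with its second probe set). Cby1, another beta-catenin antagonist, named here after its value was seen, gave -0.68.

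Of the secreted and membrane inhibitors, 1 of 17 measured was marked. Apcdd1, a membrane-bound Wnt inhibitor, was at 5.31 and 5.55 in N-myc high against 7.10 and 6.35 in N-myc low, a difference of -1.29 (SE 0.315), and all 6 of its probe sets, some of which may bind related sequences, had this sign (-1.29 to -0.14). Lgr5, the R-spondin receptor known from gut stem cells, gave -0.99 at dim levels of 2.95 to 4.54, and its second probe set gave -0.079. Of 12 target genes, Ccnd1, which encodes cyclin D1, was at 8.87 and 8.41 against 7.62 and 7.79, a difference of 0.93 (SE 0.236), and its other probe sets gave 0.93 and 0.52. For the planar polarity effectors, which act downstream of the core genes, the median over 19 genes was -0.10, and the 1 marked, the cilium and polarity gene Wdpcp, was lower, at 5.33 and 5.58 against 6.43 and 6.14 (-0.83, SE 0.214). In the calcium branch the transcription factor gene Nfatc1 gave -0.83, but its 5 probe sets differed in sign (-0.83 to 0.66).

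**Figure D5:**
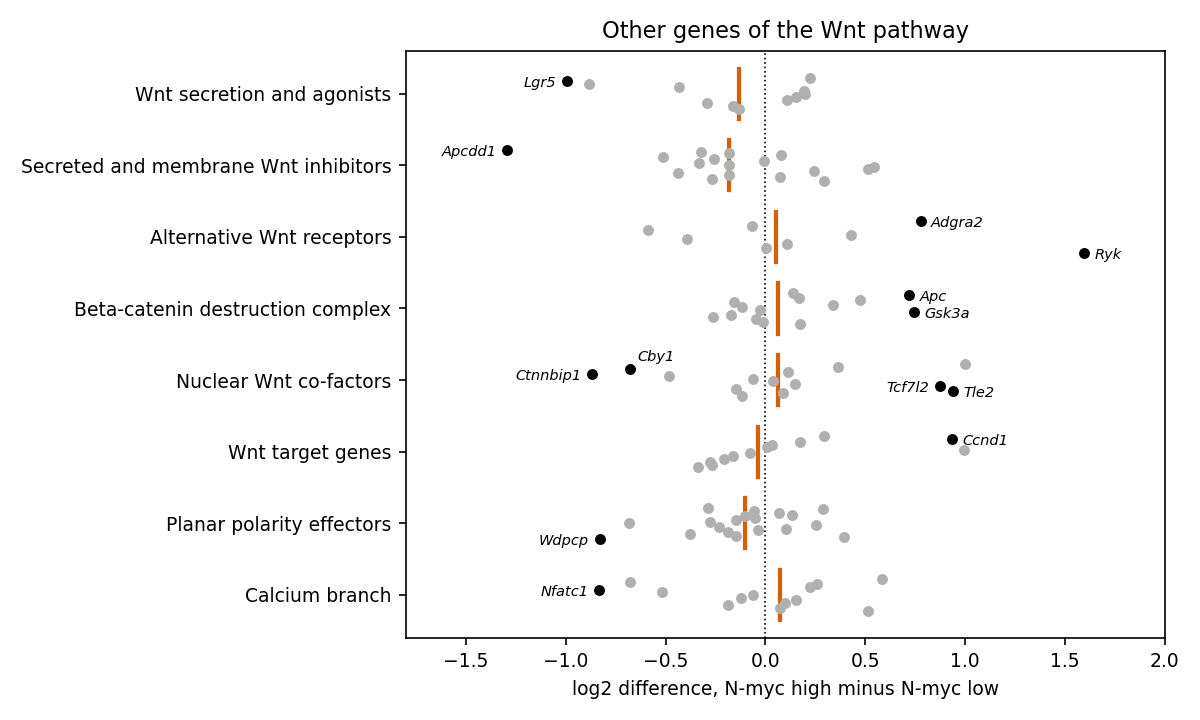
Each point is the log2 difference (x axis, N-myc high minus N-myc low) of 1 of 108 further Wnt pathway genes, in rows by list; black with a name marks an unadjusted p under 0.05 in limma, and the orange bar is the list's median. The medians lie between -0.18 and 0.07, and the 13 black points are spread over all 8 rows.

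Markers of cell identity also differed between the fractions. Of 12 measured HSC markers 5 were higher in N-myc high at an unadjusted p under 0.05 in limma and 0 lower. Of all genes, 3.53% were higher and 2.78% lower at that p. The mean level of the list was 9.12 and 9.28 in N-myc high against 8.81 and 8.55 in N-myc low. The list was not uniform: Gata2, Kit and Ctnnal1 gave -0.29, -0.13 and -0.10, Gata2 without overlap. Meis1, Slamf1, Tal1 and Hoxb5 gave 0.0095, 0.17, 0.21 and 1.11, all with overlap. The 9 macrophage markers had mean levels of 5.97 and 5.80 against 5.51 and 5.08, and a median difference of 0.26. At that p 2 of 9 were higher, C1qb by 2.66 and Mrc1 by 2.26, while C1qa and C1qc gave 0.32 and 0.26 with overlap and Siglec1, Adgre1 and Cd68 gave -0.36, -0.14 and -0.10. Adgre1 was at 2.96 to 3.68 on all arrays. B cell markers were at 5.24 and 5.25 against 4.67 and 5.07, with 2 of 6 higher (Vpreb1 by 2.45 and Cd79a by 0.65). The other B cell markers gave -0.25 to -0.15, and the median of the list was -0.18. Granulocyte markers (11.56 and 11.20 against 11.74 and 11.75) and erythroid markers (6.43 and 6.09 against 6.95 and 6.72) were lower on average, each with 1 gene marked. T and NK cell markers (3.98 and 4.07 against 4.17 and 3.99) had 1 of 7 marked (Prf1, -0.64), and endothelial and stromal markers 0 of 7 and 0 of 9. Stromal markers, from cells that make many Wnts in marrow, had mean levels of 4.93 and 4.68 against 4.79 and 4.82. The bioB and bioC hybridisation controls averaged 10.8 on both N-myc high arrays and 11.0 and 11.7 on the N-myc low arrays. The part of these differences, and of that in Cd48, in the values of the Wnt genes was not tested.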

How the data were processed

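Total RNA (5 ng per sample) was amplified with NuGEN Ovation reagents, per the labels' protocols, and hybridised to an Affymetrix mouse array. The authors deposited log2 intensities per probe set. RMA, affy and limma are named in the submitters' processing notes, without their order, and values were read as RMA output, in which a shift shared by all genes cannot be seen. The sources used here give no build, chip definition or filter. Precision is limited by having 4 arrays.

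Of 45101 probe sets, 34945 name 1 gene. For each of 18193 genes the brightest of these, by its mean of all arrays, was used. N-myc high was compared with N-myc low in R 4.3.3 with limma 3.58.1 (lmFit, eBayes, no block), adjusted by Benjamini-Hochberg over all genes. SE and intervals come from that fit. It was tested on simulated data with 200 of 18193 genes changed. An exact permutation test of 2 against 2 arrays reaches no two-sided p below 0.333.

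Arrays of 1 mouse number were read as the same animal from the labels; their deviations from group means correlated at r = 0.0492 across genes. The p-values measure only the spread between these arrays. Array values were given for members at an unadjusted p under 0.05, for members that differed by 1 or more without overlap, and for Ctnnb1, Axin2, Lef1, Lrp5, Lrp6, Prickle1, Vangl2 and Wnt2b (Tcf7, also in this rule, was not analysed here). In each pathway list up to 3 genes of smallest p could be named. Mycn was named as the check of the sort. Array values of further members, markers and probe sets were added after they were seen. Members and lists were chosen with earlier results of these data known. Alternatives were the mouse as a replicate block, the mean of probe sets, no dim genes, another prior, renormalization and each array left out.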

Additional observations from a re-analysis of the deposited data

How the results depend on the processing

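In all 9 alternatives 0 members passed an adjusted p under 0.05 in limma. Wnt2b (-2.58 to -1.98) and Vangl1 (0.78 to 1.27) kept their direction and an unadjusted p under 0.05 in 9 of 9, Prickle1 (0.49 to 1.72) in 8 of 9, all but the mean of probe sets. Wnt2b has 1 probe set, so that mean could not alter its difference. The mouse block, the other prior and the removal of dim genes leave every difference as it was. Leaving out 1 array cannot reverse fractions that do not overlap. For Wnt2b, Vangl1, Prickle1 and Vangl2 the direction in those alternatives was thus fixed in advance. In 4 of the 9 an arm holds 1 array, which is assumed to vary like the other group. Vangl2 (0.32 to 0.85) kept its direction in 9 of 9 and that p in 2. Under the replicate block by mouse, 2 members were higher and 1 lower at that p, the count of pathway genes was 13, and of the 4 members at that p only Vangl2 lost it. With the mean of probe sets 1 member was higher and 2 lower (Wnt2b and Lrp6), and Ctnnb1 turned to 0.068. Leaving out 1 array gave 2 to 5 members higher, 1 to 2 lower and 7 to 16 pathway genes. The 5 arose without N-myc low mouse 2 (with Dvl1 and Dvl3), and the second lower member was Wnt8b without that array and Wnt1 (-1.76) without N-myc low mouse 1. The median difference of members was 0.047 without dim genes, where 22 members were left and Wnt1 and Axin2 were not among them, and 0.041 after renormalization. Differences near 0 changed sign when an array was left out: Ctnnb1 ran from -0.19 to 0.052, Lef1 from -0.37 to 0.035, Lrp5 from -0.38 to 0.51 and Lrp6 from -0.14 to 0.13. Leaving out an array moves its group's mean to the other array of that group. Why the arrays of a group differ was not tested. The median half-width of a member's 95% interval was 0.60, with a range from 0.46 to 3.92.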
